A study of Homo sapiens with 12 samples.

Results

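The histone protein genes encode the proteins that package DNA. On this array they were represented by 88 of the 22277 probe sets, the groups of short probes that each give 1 value per array. The members were all probe sets that the array's annotation lists for a gene with a histone symbol, current or older, and 22215 probe sets other than controls were tested. Of the 88, 57 report replication-dependent core histones (H2A, H2B, H3 and H4), 6 report linker H1 genes of the large histone cluster, 1 reports H1-10, a linker gene outside it, and 24 report variant histones. A total of 59 are listed for 1 gene, covering 50 genes. The other 29 are listed for several near-identical genes and are given here as ranges, since their signal cannot be split among those genes.

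The arrays measured RNA of MDA-MB-231, an established human breast cancer cell line, after 24 hours in 4 conditions with 3 biological replicates each. SAHA+pargyline cells received 5 uM SAHA together with 2.5 mM pargyline. SAHA cells received 5 uM SAHA alone, and pargyline cells received 2.5 mM pargyline alone. DMSO cells received the solvent, which served as the vehicle control. SAHA (vorinostat) inhibits histone deacetylases, and pargyline inhibits monoamine oxidases and, at high doses, the histone demethylase LSD1. All values are log2 levels as deposited, and each array's median lay between 5.11 and 5.34. VIM, the mesenchymal marker vimentin, lay between 14.70 and 14.90 on all 12 arrays. ESR1, the estrogen receptor that this line is known to lack, lay between 3.00 and 3.22. The leukocyte marker PTPRC lay between 2.40 and 2.61. The epithelial marker EPCAM differed among the conditions: 4.94 to 5.48 with SAHA+pargyline, 5.48 to 6.40 with SAHA, 7.01 to 7.20 with pargyline and 8.29 to 8.59 with DMSO. Of the other epithelial markers, CDH1 lay between 2.03 and 2.15 on all 12 arrays and KRT18 between 12.59 and 13.45. The receptor gene ERBB2 lay between 4.88 and 5.40 in both SAHA conditions, against 7.96 to 8.40 in the other 2. The check of this line had listed EPCAM and ERBB2 as absent or low, but with DMSO both lay above 5.27, the median level of all probe sets. The part of the EPCAM and ERBB2 shifts in the histone values was not tested. Fewer cells of a kind and less RNA per cell cannot be told apart in such bulk samples.

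Replication-dependent histone genes lie in clusters, are transcribed mainly in S phase, and are known for mRNAs that end in a stem-loop in place of a poly(A) tail. Most variant histone genes, though not all, are transcribed outside S phase as well and carry ordinary polyadenylated mRNAs. Deacetylases remove acetyl groups from the histone proteins themselves and are recruited to many promoters. The labels describe biotin-labelled cRNA made with a commercial amplification kit. How that step captures mRNAs with and without a poly(A) tail was not tested.

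Core and linker genes share short promoter elements, which are shown here for a few genes that the results below return to, 1 or more from each of H2B, H4, linker and variant histones. Each line gives the 150 bases before an annotated start, 5′ to 3′ on the gene's own strand, from RefSeq on GRCh38.p14. Capitals mark any of 4 motifs found on either strand. TATAAA is the core of the promoter element that positions the start of transcription. The motif CCAAT is bound by the factor NF-Y. The octamer ATTTGCAT is known from H2B promoters, where it binds OCT1. The box known from linker histone promoters, here called the H1 box, is AAACACA. None of these motifs contains another.
H2BC5, chr6:26157971-26158120, plus strand: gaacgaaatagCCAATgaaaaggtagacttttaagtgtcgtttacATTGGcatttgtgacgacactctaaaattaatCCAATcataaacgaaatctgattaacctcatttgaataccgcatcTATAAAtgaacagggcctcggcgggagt
H2BC12, chr6:27146856-27147005, minus strand: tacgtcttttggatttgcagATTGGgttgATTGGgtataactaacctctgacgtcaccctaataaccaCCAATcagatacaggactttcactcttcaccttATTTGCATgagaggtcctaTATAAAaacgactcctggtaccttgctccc
H2BC21, chr1:149886683-149886832, minus strand: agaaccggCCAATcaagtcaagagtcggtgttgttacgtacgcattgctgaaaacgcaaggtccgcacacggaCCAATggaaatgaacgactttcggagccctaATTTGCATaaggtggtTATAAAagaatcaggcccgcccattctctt
H4C8, chr6:26285535-26285684, minus strand: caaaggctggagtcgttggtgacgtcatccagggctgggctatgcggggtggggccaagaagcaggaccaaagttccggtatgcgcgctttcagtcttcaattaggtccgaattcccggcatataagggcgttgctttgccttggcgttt
H1-2, chr6:26056471-26056620, minus strand: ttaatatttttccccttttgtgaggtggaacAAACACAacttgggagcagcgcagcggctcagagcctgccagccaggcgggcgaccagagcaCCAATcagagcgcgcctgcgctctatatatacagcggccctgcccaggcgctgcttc
H2AX, chr11:119095466-119095615, minus strand: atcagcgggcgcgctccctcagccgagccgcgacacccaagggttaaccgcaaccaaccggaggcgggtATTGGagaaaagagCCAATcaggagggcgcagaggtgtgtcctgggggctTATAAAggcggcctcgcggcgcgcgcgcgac
The H4C8 stretch holds none of the 4 motifs.

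Promoters were found for 68 of the 74 member genes, and motifs were counted over 250 bases before the start. The octamer was present in 12 of 15 core H2B genes and 8 of 13 core H2A genes, in 1 of 9 core H3 genes and in 0 of 13 H4 genes, against 1.63% of 35116 promoters. CCAAT was present in all 15 H2B, 13 H2A and 9 H3 genes, against 32.0% of promoters, but in 3 of 13 H4 genes. All 6 linker genes of the cluster held the H1 box, against 4.82% of promoters. TATAAA was present in 11 of 15 H2B and 7 of 13 H4 genes, against 10.7% of promoters. The octamer was present both in H2B genes that rose with SAHA and in others. Of the H2B genes with a promoter in the table and a probe set of their own, 4 of 5 that rose held it, as did 4 of 6 that did not pass the test.

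SAHA alone was the first comparison, and it addresses what blocking deacetylases does to the histone genes. Among the core families H2B had the most rises: 10 of 18 probe sets were higher with SAHA than with DMSO and 0 lower. Their median log2 change was 1.30, and more of them had a signal above the median level than in the other core families (given below). The linker genes H1-2 and H1-10 rose as well, while the variants H2AZ1 and MACROH2A1 fell. Over all 88 members, 26 (29.5%) were higher, against 19.3% of all probe sets. Another 9 (10.2%) were lower, against 20.4% of all probe sets. The share called in either direction was 39.8% of members and 39.7% of all probe sets, so the members were not called more often than the array as a whole. The median change was 0.02 over the members and 0.00 over all probe sets. These and all later calls are from limma across the 22215 probe sets, two-sided, with a Benjamini-Hochberg adjusted p under 0.05.

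**Figure D1:**
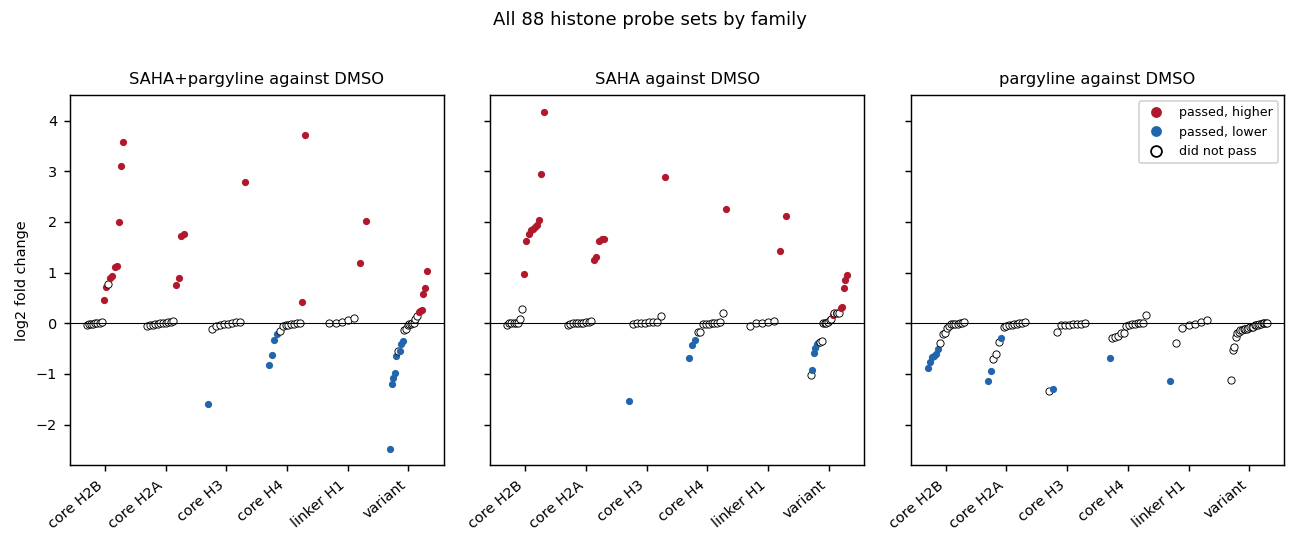
Log2 fold change of each of the 88 histone probe sets (vertical axis) by family, for SAHA+pargyline, SAHA and pargyline against DMSO, with one point per probe set and filled points for those that passed the test. The H2B column holds 10 filled points with SAHA, all above 0, and 6 with pargyline, all below 0; the 2 probe sets listed for H2A and H3 genes together are drawn with core H2A.

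In 39 members at least 1 group mean lay above the median level of all probe sets, 5.27, and 49 lay below it in every group. The 39 held 23 of the 26 rises and 7 of the 9 falls with SAHA. They included 10 of 18 core H2B probe sets, against 3 of 13 core H2A, 2 of 10 core H3 and 2 of 14 core H4. All 10 of these H2B and all 3 of these H2A probe sets were higher with SAHA, with medians of 1.88 and 1.62. The larger count of H2B rises is therefore not read as particular to H2B over H2A. Only 3 of the 42 members whose highest group mean was under 3 passed any comparison. Both splits used the highest group mean, so a member could enter the 39 through the group in which it rose. H2BC21, with a mean of 2.56 with DMSO and 6.74 with SAHA, did so. The splits are therefore not independent of the calls. When every array was centred on its own median, the split with SAHA turned to 22 higher and 42 lower, with 33 of the 42 among the low members, and the median of all probe sets moved to -0.11. Core H2B kept 10 higher under that scaling, beside 6 lower. Here and below, the share of all probe sets called under that scaling is not given. Counts under it are therefore not read as particular to the histones.

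H2BC21, an H2B gene on chromosome 1 apart from the large cluster on chromosome 6, had the largest fitted rise. Its SAHA arrays read 6.62, 7.43 and 6.16, against 2.61, 2.56 and 2.52 on the DMSO arrays. All 3 SAHA arrays lay far above a DMSO level near the bottom of the scale, and the fitted change was 4.17 ± 0.45 (log2, SE, limma adjusted p = 4.38e-05). No detection calls are at hand, so that DMSO level cannot be told from background and the fitted value is best read as a lower limit.

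H2BC5, in the chromosome 6 cluster, read 10.85, 10.99 and 10.66 with SAHA, against 7.65, 7.97 and 8.02 with DMSO. The groups did not overlap, and the change was 2.95 ± 0.18 (adjusted p = 9.09e-07). Its second probe set gave 1.90 ± 0.17 (adjusted p = 1.43e-05). Both probe sets are of the _x_at kind, whose probes can bind related transcripts.

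H2BC12 is reported by a probe set without that mark. It read 13.82, 13.96 and 13.70 with SAHA, against 12.11, 12.22 and 12.29 with DMSO (1.62 ± 0.13, adjusted p = 4.85e-06). H2BC9 rose by 2.05 ± 0.10, H2BC6 by 1.93 ± 0.15 and H2BC12L, an H2B gene outside the large cluster, by 1.84 ± 0.16, each through an _x_at probe set. The other 3 H2B probe sets that rose are listed for several genes, with changes between 0.97 and 1.86.

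Of the 13 core H2A probe sets, 5 rose with SAHA and 0 fell. H2AC6, a core H2A gene, read 10.21, 10.14 and 9.45 with SAHA, against 8.18, 8.45 and 8.18 with DMSO. The groups did not overlap (1.66 ± 0.23, adjusted p = 0.000201). H2AC17, another core H2A gene, had a lower signal: 4.58, 5.61 and 5.23 with SAHA, against 3.86, 3.90 and 3.90 with DMSO (1.25 ± 0.21, adjusted p = 0.000702). The other 3 are listed for several H2A genes and rose by 1.31 to 1.67.

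H3 and H4 went both ways. Among 10 core H3 probe sets 1 rose and 1 fell. H3C2 read 3.96, 3.93 and 3.76 with SAHA, against 5.47, 5.59 and 5.17 with DMSO, a change of -1.53 ± 0.13 (adjusted p = 8.18e-06). The one that rose is listed for several H3 genes, H3C2 among them, and gained 2.88 ± 0.41. Among 14 H4 probe sets 1 rose and 3 fell. H4C8 was the one that rose: 6.84, 7.25 and 6.90 with SAHA, against 4.87, 4.47 and 4.90 with DMSO (2.25 ± 0.16, adjusted p = 2.4e-06). H4C11 read 3.06, 3.08 and 3.09 with SAHA, against 3.86, 3.88 and 3.53 with DMSO, all below the median level (-0.68 ± 0.09, adjusted p = 0.000173). The H4 probe set with the highest level, listed for 14 H4 genes with H4C8 and H4C11 among them, also fell. It read 13.54, 13.43 and 13.31 with SAHA, against 13.87, 13.94 and 13.77 with DMSO.

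**Figure D2:**
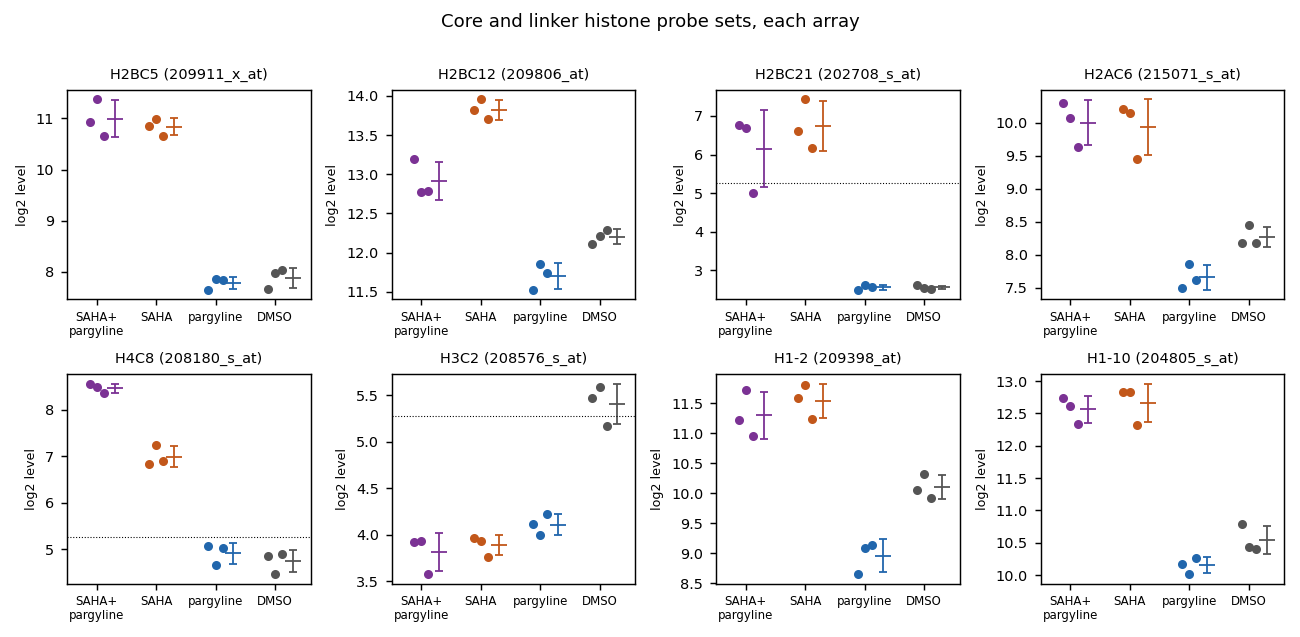
Log2 level (vertical axes, each with its own range) of 8 core and linker histone probe sets on each of the 12 arrays, by condition; points are arrays, bars the mean ± SD of 3, and dotted lines the median level of all probe sets. H2BC12 shows 4 separate levels with SAHA highest, H4C8 is highest with SAHA+pargyline, and H3C2 is low in all 3 drug conditions.

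Linker histones bind the DNA between nucleosomes. H1-2, a linker gene of the cluster, read 11.58, 11.81 and 11.23 with SAHA, against 10.06, 10.33 and 9.93 with DMSO (1.43 ± 0.22, adjusted p = 0.000518). H1-10, the linker gene outside the cluster, read 12.84, 12.84 and 12.32 with SAHA, against 10.80, 10.43 and 10.41 with DMSO (2.12 ± 0.17, adjusted p = 5.56e-06). In neither gene did the groups overlap. The other 5 linker probe sets did not pass with SAHA.

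Of the 24 variant probe sets, 7 rose and 5 fell with SAHA. With arrays centred on their medians 3 rose and 10 fell. The 2 genes for the transcription-associated variant H2A.Z moved in opposite directions. H2AZ1 read 14.03, 14.00 and 13.99 with SAHA, against 14.47, 14.49 and 14.52 with DMSO (-0.49 ± 0.03, adjusted p = 1.65e-06), and its second probe set also fell (-0.39, adjusted p = 0.0111). H2AZ2 read 13.88, 13.95 and 13.88 with SAHA, against 13.22, 13.12 and 13.26 with DMSO (0.70 ± 0.08, adjusted p = 3.92e-05). A second H2AZ2 probe set rose by 0.96 ± 0.07, and the third did not pass (0.09 ± 0.06, adjusted p = 0.33), so the probe sets of this gene disagree.

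MACROH2A1, which encodes an H2A variant with a large extra domain, fell on each of its 3 probe sets. The one with the highest level read 13.17, 13.07 and 12.98 with SAHA, against 13.67, 13.67 and 13.66 with DMSO (-0.59 ± 0.05, adjusted p = 7.58e-06). The others changed by -0.91 and -0.40. MACROH2A2, its paralog, stayed near the bottom of the scale and did not pass. H2AJ, an H2A variant gene outside the clusters, read 3.67, 4.81 and 4.54 with SAHA, against 3.64, 3.63 and 3.20 with DMSO (0.85 ± 0.27, adjusted p = 0.03). The lowest SAHA array lay beside the DMSO arrays. The H2AJ call was lost under quantile normalization (adjusted p = 0.0602) and without DMSO replicate 2 or 3 or SAHA replicate 2 or 3.

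H2AX encodes the variant that is phosphorylated at DNA breaks. None of its 4 probe sets passed with SAHA alone, with changes of -0.38, -0.35 and -1.02 on the 3 with higher levels and 0.01 on the lowest. The probe set at -1.02 did pass under several alternatives: with the replicate block, without low probe sets, with median centring, and without SAHA replicate 1 or SAHA+pargyline replicate 1 (adjusted p 0.03 to 0.0417). The one at -0.38 passed with median centring (0.0483) and the one at -0.35 without SAHA replicate 1 (0.0488). H3-3A and H3-3B encode the same replacement histone, H3.3. The single-gene H3-3A probe set did not pass any comparison, and 4 of the 8 probe sets listed for both genes rose with SAHA, by 0.17 to 0.32.

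Pargyline alone, the second comparison, gave lower calls in 11 of 57 core and 1 of 7 linker histone probe sets and no higher call. In all, 12 of 88 members (13.6%) were lower than with DMSO, against 5.78% of all probe sets, and 0 higher, against 6.81%. In either direction this is 13.6% of members, against 12.6% of all probe sets. At an unadjusted p under 0.05, limma gave 23 members lower (26.1%), against 12.2% of all probe sets, and 0 higher, against 11.9%. The median change was -0.06 over the members and -0.02 over all probe sets. Of the 12 calls, 6 were core H2B and 3 core H2A, and 0 of 24 variant probe sets passed. Without any one of the 3 DMSO arrays, 7 members were lower. With arrays centred on their medians, 68 were lower and 0 higher, and the median of all probe sets moved to -0.15. Of the 68, 43 were low members. The share of all probe sets called lower under that scaling is not given here, so the 68 cannot be set against it.

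H2BC9 read 4.65, 4.94 and 4.83 with pargyline, against 5.61, 5.72 and 5.73 with DMSO. The groups did not overlap, and the change was -0.88 ± 0.10 (adjusted p = 0.00079). H2BC12 read 11.53, 11.85 and 11.74 with pargyline, against 12.11, 12.22 and 12.29 with DMSO (-0.50 ± 0.13, adjusted p = 0.0305). The H2BC12 call was lost with the replicate number as a block (adjusted p = 0.0527), and without any DMSO array, pargyline replicate 1 or pargyline replicate 3 (0.0567 to 0.0986). H2BC12L changed by -0.60 ± 0.16 (adjusted p = 0.0368), a call lost without any DMSO or pargyline array, SAHA replicate 1 or SAHA+pargyline replicate 2 (0.0502 to 0.125). H2BC21 did not follow: it read 2.50, 2.61 and 2.57 with pargyline, against 2.61, 2.56 and 2.52 with DMSO (adjusted p = 0.998), a level near the bottom of the scale in both groups.

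The 2 H2BC5 probe sets differed with pargyline. The first gave -0.10 (adjusted p = 0.796) and the second -0.66 ± 0.17 (adjusted p = 0.0364), a call lost without any DMSO or pargyline array, SAHA replicate 1 or SAHA+pargyline replicate 1 (0.0512 to 0.123). Of the core H2A probe sets 3 fell. H2AC14, a core H2A gene named after its values were seen, changed by -0.29 ± 0.07 (adjusted p = 0.0317), and the 2 others, both listed for H2AC18 and H2AC19, by -0.94 and -1.14. H2AC6 did not pass (-0.61, adjusted p = 0.123).

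H1-2 was the linker gene lowered by pargyline. It read 8.65, 9.09 and 9.14 with pargyline, against 10.06, 10.33 and 9.93 with DMSO, and every pargyline array lay below every DMSO array (-1.14 ± 0.22, adjusted p = 0.0101). H1-10 changed by -0.39 and did not pass (adjusted p = 0.189). H3C2 read 4.11, 3.99 and 4.22 with pargyline, against 5.47, 5.59 and 5.17 with DMSO (-1.30 ± 0.13, adjusted p = 0.000411). H4C11 changed by -0.68 ± 0.09 (adjusted p = 0.00164). H4C8 did not pass (0.17, adjusted p = 0.577).

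H2AX did not pass with pargyline. On its 3 higher probe sets every pargyline array lay below every DMSO array. The share of all probe sets separated in this way is not given, so that separation is not read as a result. These 3 probe sets measure the same gene on the same arrays. The one with the highest level read 11.76, 11.65 and 11.59 with pargyline, against 12.24, 12.20 and 12.16 with DMSO (-0.53 ± 0.20, adjusted p = 0.124). The others changed by -0.46 (adjusted p = 0.237) and -1.11 ± 0.41 (adjusted p = 0.124). In the fit of these 2 groups alone, the probe sets at -0.53 and -1.11 passed (adjusted p = 0.00586 for both). The one at -1.11 also passed without low probe sets (0.0492) and without SAHA replicate 3 (0.0432), and with median centring all 3 passed (0.0189 to 0.0386).

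The third comparison set SAHA+pargyline against DMSO. Of the 88 members, 24 (27.3%) were higher, against 20.6% of all probe sets, and 13 (14.8%) were lower, against 21.3%. In either direction 42.0% of members passed, against 41.9% of all probe sets, and the median change was 0.00 over the members and -0.02 over all probe sets. With arrays centred on their medians these counts became 19 higher and 55 lower, 41 of them low members, and the median of all probe sets moved to -0.19. Core H2B again had 9 higher and 0 lower of 18.

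H4C8 and H2BC21 had the largest fitted rises, whose order is within their error. H4C8 read 8.55, 8.50 and 8.36 with SAHA+pargyline, against 4.87, 4.47 and 4.90 with DMSO (3.72 ± 0.16, adjusted p = 1e-07). H2BC21 read 6.77, 6.69 and 5.00 with SAHA+pargyline, against 2.61, 2.56 and 2.52 with DMSO (3.59 ± 0.45, adjusted p = 0.000106). SAHA+pargyline replicate 3 was lower than the other 2 but far above every DMSO array. H2BC5 read 10.94, 11.38 and 10.66 with SAHA+pargyline, against 7.65, 7.97 and 8.02 with DMSO (3.11 ± 0.18, adjusted p = 5.52e-07).

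H1-10 read 12.74, 12.61 and 12.33 with SAHA+pargyline, against 10.80, 10.43 and 10.41 with DMSO (2.02 ± 0.17). H1-2 read 11.23, 11.72 and 10.95 with SAHA+pargyline, against 10.06, 10.33 and 9.93 with DMSO (1.19 ± 0.22, adjusted p = 0.00157). Both linker genes rose with no overlap. H2AC6 rose by 1.73 (adjusted p = 0.000134), and H2AJ by 1.04 (adjusted p = 0.0103). H3C2 fell by 1.60 and H4C11 by 0.82 on the log2 scale. The H4 probe set listed for 14 genes was lower too. It read 13.39, 13.16 and 13.15 with SAHA+pargyline, against 13.87, 13.94 and 13.77 with DMSO.

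H2AX fell on 3 of its 4 probe sets in this comparison. The one with the highest level read 11.52, 10.85 and 10.97 with SAHA+pargyline, against 12.24, 12.20 and 12.16 with DMSO (-1.09 ± 0.20, adjusted p = 0.00117). The second changed by -1.19 ± 0.22 (adjusted p = 0.00125) and the third by -2.47 ± 0.41 (adjusted p = 0.000685). On all 3 the SAHA+pargyline arrays lay below the DMSO arrays. The fourth lay near 1.23 in all groups. MACROH2A1 fell by 0.65, 0.98 and 0.34 on its 3 probe sets and H2AZ1 by 0.54 and 0.41, while H2AZ2 rose by 0.58 and 0.70 on those that moved with SAHA. The comparisons against DMSO share their DMSO arrays, so their likeness is not tested here.

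**Figure D3:**
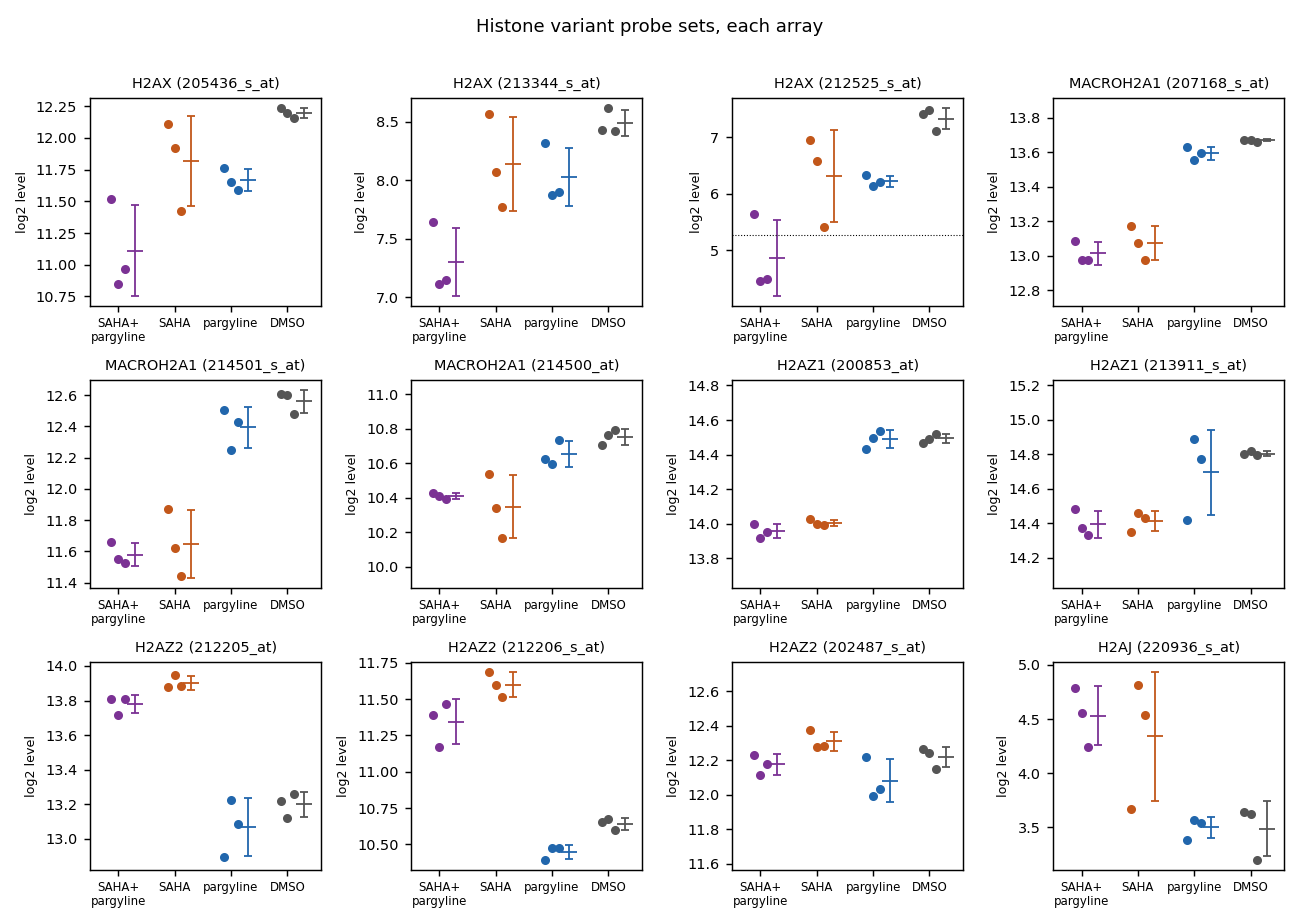
Log2 level (vertical axes, each with its own range) of 12 histone variant probe sets on each of the 12 arrays, by condition; points are arrays, bars the mean ± SD of 3, and the dotted line the median level of all probe sets. H2AX is lowest with SAHA+pargyline, MACROH2A1 and H2AZ1 are lower in both SAHA conditions, and 2 of the 3 H2AZ2 probe sets are higher there.

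Adding SAHA to pargyline gave a second, separate measurement of the SAHA effect, since SAHA+pargyline against pargyline shares no array with SAHA against DMSO. Here 27 members (30.7%) were higher, against 20.3% of all probe sets, and 9 (10.2%) were lower, against 20.6%. In either direction 40.9% of members passed, against 41.0% of all probe sets. Of the members, 23 were higher in both, which is 88.5% of the 26 with SAHA alone and 85.2% of the 27 here. Over all probe sets 3621 were higher in both, 84.4% and 80.2% of the lists, so the members' overlap was close to that of the array. Another 6 members were lower in both, 66.7% of each list of 9, against 83.3% and 82.3% over all probe sets.

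H1-2 read 11.23, 11.72 and 10.95 with SAHA+pargyline, against 8.65, 9.09 and 9.14 with pargyline (2.34 ± 0.22, adjusted p = 2.07e-05). H4C8 read 8.55, 8.50 and 8.36 with SAHA+pargyline, against 5.06, 4.66 and 5.03 with pargyline (3.55 ± 0.16). H2BC9 changed by 1.99 ± 0.10, H2BC12 by 1.21 ± 0.13 and H1-10 by 2.41 ± 0.17. H1-4, a linker gene with a low signal, passed in this comparison alone (0.18 ± 0.06, adjusted p = 0.0379). That call was lost under quantile normalization (adjusted p = 0.284) and with the replicate block (0.0604). It was also lost without any array other than pargyline replicate 3 and those of SAHA+pargyline. H3C2 did not pass here (-0.30, adjusted p = 0.102). The count of 9 lower members became 4 without SAHA+pargyline replicate 2 or 3 and 5 without pargyline replicate 1. All 3 higher H2AX probe sets were among the 9, at -0.56, -0.73 and -1.36 (adjusted p = 0.0462, 0.0217 and 0.0231). Each of these calls was lost without pargyline replicate 1 or SAHA+pargyline replicate 2 or 3 (0.0663 to 0.165). The call at -0.56 was also lost under quantile normalization (0.0581), array weights (0.066) and the fit of these groups alone (0.0684). It was lost as well without any DMSO array, SAHA replicate 2, or pargyline replicate 2 or 3 (0.061 to 0.0907). The call at -1.36 was also lost without pargyline replicate 3 (0.0567). The 2 H2AZ1 probe sets changed by -0.53 and -0.30, and the 3 MACROH2A1 probe sets by -0.58, -0.82 and -0.24. The calls at -0.24 and -0.30 were each lost without several of the arrays.

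**Figure D4:**
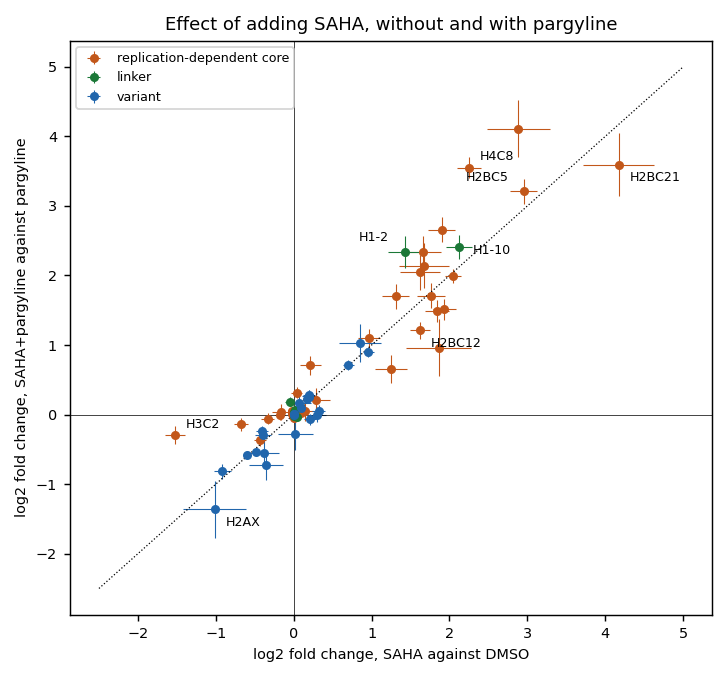
Log2 fold change of SAHA against DMSO (horizontal axis) and of SAHA+pargyline against pargyline (vertical axis) for the 88 histone probe sets, with SE bars and a dotted line of equal change; the axes share no array. Most points lie near the line, with H4C8 and H3C2 above it and the H2AX probe set with the largest change at the lower left.

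Adding pargyline to SAHA, the converse comparison, lowered 14 members (15.9%), against 6.76% of all probe sets, and raised 1 (1.14%), against 6.65%. In either direction 17.0% of members passed, against 13.4% of all probe sets. Core H2B held 6 of the lower calls, variants 7 and core H2A 1. The median change was -0.02 over the members and over all probe sets. The count of 14 became 5 without SAHA replicate 1, SAHA replicate 2 or SAHA+pargyline replicate 2, 7 without SAHA+pargyline replicate 3, and 9 without DMSO replicate 2, DMSO replicate 3 or pargyline replicate 2. It was 4 in a fit of these 2 groups alone.

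H2BC12 read 13.19, 12.77 and 12.78 with SAHA+pargyline, against 13.82, 13.96 and 13.70 with SAHA. The groups did not overlap (-0.91 ± 0.13, adjusted p = 0.00228). H2BC9 read 6.95, 6.79 and 6.66 with SAHA+pargyline, against 7.70, 7.90 and 7.60 with SAHA (-0.93 ± 0.10, adjusted p = 0.000997). H2BC12L changed by -0.95 (adjusted p = 0.00496) and H2BC6 by -0.80 ± 0.15 (adjusted p = 0.00756). H2BC5 and H2BC21 did not pass (0.16, adjusted p = 0.63, and -0.58, adjusted p = 0.462).

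Pargyline against DMSO and SAHA+pargyline against SAHA share no array either, though they too use the same limma estimate of spread. The lists had 5 lower members in common, all H2B probe sets, among them H2BC12, H2BC12L and H2BC9. These are 41.7% of the 12 and 35.7% of the 14, and over all probe sets the shares were 42.6% and 36.4%. H1-2, which fell with pargyline alone, changed by -0.24 when pargyline was added to SAHA and did not pass (adjusted p = 0.545).

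H2AC17 read 3.86, 3.89 and 3.78 with SAHA+pargyline, against 4.58, 5.61 and 5.23 with SAHA (-1.30 ± 0.21, adjusted p = 0.00392). With both drugs it lay at the DMSO level (-0.04 against DMSO, adjusted p = 0.897). The 3 higher H2AX probe sets changed by -0.71, -0.84 and -1.46 on the log2 scale with SAHA+pargyline against SAHA, with adjusted p between 0.0331 and 0.0461. On the second the groups did not overlap (7.64, 7.11 and 7.15 with SAHA+pargyline, against 8.57, 8.07 and 7.77 with SAHA), and on the others 1 array of each group fell within the other's range. Each of these H2AX calls was lost without SAHA replicate 1 or 2 or SAHA+pargyline replicate 2 or 3 (adjusted p 0.0774 to 0.159). The calls on the first and on the last were also lost without any DMSO or pargyline array (0.058 to 0.0695). H2AZ2 changed by -0.26 on 1 probe set (adjusted p = 0.0472), a call lost with the replicate block (adjusted p = 0.0692) and without any array other than SAHA replicate 3 or SAHA+pargyline replicate 3. The H3.3 probe sets held the other 3 lower variant calls (-0.32 to -0.42).

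H4C8 was the member that rose when pargyline was added to SAHA. It read 8.55, 8.50 and 8.36 with SAHA+pargyline, against 6.84, 7.25 and 6.90 with SAHA, and the groups did not overlap (1.47 ± 0.16, adjusted p = 0.000934). With pargyline against DMSO it did not pass in limma (0.17 ± 0.16, adjusted p = 0.577). Both of those group means, 4.92 and 4.74, lay below the median level of all probe sets. The interaction, the SAHA effect with pargyline minus that without it, was 1.30 ± 0.22 (adjusted p = 0.0199). H3C2 also had an interaction (1.23 ± 0.18, adjusted p = 0.0123), and it lay between 3.58 and 4.22 on all 9 arrays with either or both drugs. These were 2 members (2.27%) with a positive interaction, against 1.03% of all probe sets, and 0 with a negative one, against 1.69%. In either direction 2.27% of members passed, against 2.72%. At an unadjusted p under 0.05, limma gave 9 members with a positive interaction (10.2%), against 7.04% of all probe sets, and 2 with a negative one (2.27%), against 7.77%. The H4C8 interaction was lost without DMSO replicate 1 (adjusted p = 0.0534), SAHA+pargyline replicate 1 (0.0507) or SAHA+pargyline replicate 2 (0.0539). H2BC12 and H2BC9 had no interaction that passed (-0.41, adjusted p = 0.323, and -0.05, adjusted p = 0.934).

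Genes that serve the histones were read from 3 lists, each gene by its single-gene probe set with the highest mean level. The shares given next are over all probe sets, low ones included. They are therefore not a like background for the lists, whose counts are not read as an excess over the array. Over all probe sets 19.3% were higher and 20.4% lower with SAHA, 6.81% and 5.78% with pargyline, and 20.6% and 21.3% with SAHA+pargyline, each against DMSO, and 6.65% and 6.76% with SAHA+pargyline against SAHA. Of 12 measured genes for histone gene transcription and mRNA processing, 4 rose and 5 fell with SAHA. NPAT, the coactivator of replication-dependent histone genes, rose by 1.00 ± 0.06, and HINFP, which binds H4 promoters, by 0.73 ± 0.13. CSTF2, a cleavage factor, changed by -1.04 ± 0.09 and UPF1, which acts in histone mRNA decay, by -0.70 ± 0.12. SLBP, the protein that binds the stem-loop, did not pass (0.36, adjusted p = 0.085). With pargyline 0 of 12 passed in limma and 3 were lower at an unadjusted p under 0.05. With the replicate number as a block 2 of 12 were lower. With SAHA+pargyline 4 were higher than with DMSO and 5 lower, and the median change was -0.07.

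Of 30 measured genes for histone chaperones and exchange, 17 fell and 4 rose with SAHA, with a median of -0.40. IPO4, an importer of H3 and H4, changed by -1.68 ± 0.10, HJURP, the chaperone of the centromeric H3, by -1.38 ± 0.27, and DAXX, a chaperone of H3.3, by -1.10 ± 0.09. NASP, which holds free H3 and H4, changed by -0.90 ± 0.12, and SSRP1, a subunit of FACT, fell by 1.00 ± 0.09. ASF1A, a chaperone of H3 and H4, rose by 0.90 ± 0.12 and HAT1, which acetylates new H4, by 0.34 ± 0.08. With pargyline 6 fell and 0 rose, and 3 fell without DMSO replicate 1 or 2. With SAHA+pargyline 19 were lower than with DMSO and 4 higher. CHAF1B, a subunit of the assembly factor CAF-1, was lower with SAHA+pargyline than with SAHA (-1.06 ± 0.14, adjusted p = 0.00193).

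Of 22 measured genes of the S phase list, 15 fell and 2 rose with SAHA (median -0.68), and 16 fell and 1 rose with SAHA+pargyline against DMSO (median -1.12). TYMS, which makes thymidylate, changed by -2.73 ± 0.16 with SAHA, GINS2, part of the replicative helicase, by -1.35 ± 0.16, and CCNA2, the S phase cyclin, by -1.05 ± 0.17. RRM2, a subunit of ribonucleotide reductase, rose by 0.84 ± 0.18 and TK1, a thymidine kinase, by 0.84 ± 0.15. With pargyline alone 2 fell and 1 rose: POLA1 and GINS1 changed by -0.62 and -0.54, and CCNE1, the cyclin of S phase entry, by 0.54. With the replicate number as a block 5 fell, and without SAHA+pargyline replicate 2 there were 6. When pargyline was added to SAHA, 11 of 22 fell and 0 rose, with CCNA2 at -1.41 ± 0.17, and 7 fell without SAHA+pargyline replicate 2. The part of cell cycle position in the histone values was not tested.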

How the data were processed

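RNA from 12 cultures (4 conditions, 3 biological replicates each, per the labels) was measured on Affymetrix human expression arrays. The authors deposited log2 values, and RMA is named in the submitters' processing notes. Its version, and whether all arrays were normalized together, are not given in the sources used here. Array replicates correlated at 0.998 to 0.999, and 3 arrays a group limit the precision. The 62 control probe sets were left out.

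All 22215 remaining probe sets were fitted by group means in limma 3.58.1 under R 4.3.3 (8 residual degrees of freedom, two-sided, Benjamini-Hochberg over all probe sets), after a test on simulated data. Genes were named through the platform annotation, with symbols updated through RefSeq. The text names single-gene members among the 6 largest passing rises or falls of their class in a comparison, and list genes that passed. It also names a fixed set of linker and variant genes and the core genes H2BC5, H2BC12, H2BC21, H2AC6 and H4C8. Some genes are also given in comparisons where the rule did not name them, such as H2BC12L and H2AC17 with SAHA against DMSO. Members and lists were chosen with earlier results of these data known.

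Replicate numbers come from the labels. Deviations of same-numbered arrays correlated at 0.237, 0.104 and 0.249 for pargyline and DMSO, and at 0.368, 0.289 and 0.500 for SAHA+pargyline and SAHA, so for these 2 comparisons the value with the replicate number as a block is given beside the unblocked one where it changed a call. The other pairs of groups did not all exceed 0.1, though SAHA and DMSO gave 0.285, 0.093 and 0.323. In SAHA+pargyline against pargyline the block also ended the limma calls on H1-4 (adjusted p = 0.0604) and on the MACROH2A1 probe set at -0.24 (0.0577). Alternatives were quantile normalization, median centring, leaving out low probe sets, 1 probe set per gene, a replicate block, array weights, the compared groups alone, and each array left out.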

Additional observations from a re-analysis of the deposited data

Results flagged for a closer look

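The effect of SAHA differed with and without pargyline for 2 histone probe sets, by the interaction term in limma. For H4C8 the SAHA effect was 3.55 with pargyline and 2.25 without it, a difference of 1.30 ± 0.22 (log2, SE, adjusted p = 0.0199). For H3C2 it was -0.30 with pargyline and -1.53 without it, a difference of 1.23 ± 0.18 (adjusted p = 0.0123). The H4C8 call was lost without DMSO replicate 1 (adjusted p = 0.0534), SAHA+pargyline replicate 1 (0.0507) or SAHA+pargyline replicate 2 (0.0539). H3C2 lay below the median level of 5.27 in all 3 drug conditions, with means of 3.81 with SAHA+pargyline, 3.89 with SAHA and 4.11 with pargyline. H4C8 lay below that level with pargyline and with DMSO, with means of 4.92 and 4.74. Whether a lower limit of the signal shaped either interaction was not tested. The cause of either interaction was not tested.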

How the results depend on the processing

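Quantile normalization and array weights changed the direction of no named value; quantile normalization ended 4 named calls and array weights 2. The replicate block changed no named histone call in the paired comparisons other than H2BC12 and H2AZ2, given in the report, and left 13 members lower with pargyline and 14 with SAHA+pargyline against SAHA. With it the interaction gained 1 negative member. With 1 probe set per gene, which leaves 50 genes by construction, 13 were higher and 4 lower with SAHA, 12 and 5 with SAHA+pargyline against DMSO, 15 and 3 against pargyline, and 6 lower against SAHA. With arrays centred on their medians, 42 were lower with SAHA, 68 with pargyline and 55 with SAHA+pargyline, all against DMSO. No share of all probe sets is given beside these counts under that centring. The lowest H2AX probe set then turned to -0.11 with SAHA, -0.13 with pargyline and -0.17 with SAHA+pargyline, and MACROH2A2 to -0.11 with SAHA, which follows the shift of all probe sets. The fit of compared groups alone left 4 lower in SAHA+pargyline against SAHA, and without low probe sets 1 interaction was positive. With each array left out in turn, SAHA gave 22 to 27 higher and 9 to 11 lower, pargyline 0 higher and 7 to 13 lower, and SAHA+pargyline against DMSO 21 to 24 higher and 12 to 14 lower. SAHA+pargyline against pargyline gave 26 to 27 higher and 4 to 9 lower, and against SAHA 1 higher and 5 to 15 lower. The interaction gave 1 to 4 positive (4 without DMSO replicate 3) and 0 to 1 negative. The gene lists were put through the same alternatives after seeing the data, and no called list gene changed direction; with median centring 14 S phase genes and 21 chaperone genes were lower with pargyline. No detection call is given, so low probe sets cannot be told from background.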
